A study of Mus musculus with 11 samples.

Results

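The genes described here serve protein folding in the endoplasmic reticulum (ER) and the unfolded protein response that adjusts it. The list holds 32 genes, and 30 of them could be read on the array out of 18820 genes with a single symbol. A gene was taken where a probe set carried its symbol alone, and where several did, the brightest of them on average over the 11 arrays stood for the gene. Ero1lb was found under its current symbol Ero1b, through the synonym and Entrez number in RefSeq. Pdia4 shared its probe set with the microRNA gene Mir704 and Ddit3 with Mars1, so no value was given to either. For the comparison of chaperones with stress regulators, 16 measured folding factors (luminal chaperones and co-chaperones, lectin chaperones, and disulfide enzymes) were set beside 8 measured regulators (sensors, transcription factors and Trib3). The remaining 6 genes act in degradation and translocation.

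Proteins bound for secretion enter the ER through the Sec61 channel and are folded there by chaperones of the heat shock families, by lectin chaperones that read their sugars, and by disulfide isomerases. When unfolded protein builds up, the sensors IRE1, PERK and ATF6 respond: IRE1 splices the mRNA of Xbp1, PERK slows translation and favours Atf4, and ATF6 is cut in the Golgi to free a transcription factor. The targets of these factors include the chaperones and the machinery that returns misfolded protein to the cytosol for degradation. In the colon, goblet cells, which make mucin, and plasma cells, which make antibody, carry a heavy secretory load.

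Colon mucosal scrapings came from male C57BL/6J mice of 12 weeks, adapted for 2 weeks to a low-fat diet that all ate. For a further 10 days the control mice (n = 5) kept this diet, and the inulin mice (n = 6) had 10% by weight of it exchanged from corn starch to inulin, a fermentable fructan fibre. The labels' protocols give a meal of 1 g of the diet after an overnight fast and death 4 h later, whereas the design text mentions the fast alone. RNA of each mouse was hybridised to its own array, and values are log2 units of normalised signal.

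The 11 arrays had medians between 5.38 and 5.46 and lower quartiles between 3.72 and 3.79. Goblet and colonocyte markers were bright, with Muc2 at 13.12 and Car1 at 12.83 in control mice. Markers of fat and pancreas were read too, and whether their signal came from other tissue in the scrapings was not tested. Adipocyte markers were higher under inulin in 18 of 18 genes (per-mouse means 5.61 to 6.06 in control, 5.71 to 7.82 in inulin), and pancreatic acinar markers in 14 of 18, with a mean of 9.95 in inulin mouse 3 against 6.00 to 7.95 in the other mice. Inulin mouse 5 stood apart on the first principal component, at 37.0 against -12.3 to 13.5 in the rest. Over all genes 17 passed the test between diets (limma, Benjamini-Hochberg adjusted p below 0.05).

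Promoters of these genes are shown first. The list was drawn from a known response, so elements of that response in its promoters are no finding about the diets. ATF6, together with NF-Y, binds the ER stress response element (ERSE), which is CCAAT and CCACG with 9 free bases between them, and a second form, ERSE-II, is ATTGG and CCACG with 1 free base between them. Also searched were TGACGTGG, the unfolded protein response element (UPRE), and TGATGNAAT, the composite element bound by ATF4. Each was searched on both strands in the RefSeq windows of the mouse assembly GRCm38.p6, which run from 250 bases before to 50 bases after each gene start and are 300 bases long. Of the 32 genes 27 had a window. Hyou1, Manf, Atf6, Ern2 and Creb3l1 had none. ERSE lay in 9 of the 27 windows (33.3%), against 39 of all 32851 windows (0.119%). ERSE-II lay in 2 of 27 (7.41%), against 0.0365% of all windows. UPRE and the ATF4 element lay in 0 of 27, against 0.676% and 0.965% of all windows. The 12 sites are given here in the orientation of the element, with its fixed letters in capitals and genome positions on GRCm38.p6, and none overlapped another.
Hspa5, ERSE, chr2:34772025-34772043: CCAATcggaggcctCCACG
Hsp90b1, ERSE, chr10:86705638-86705656: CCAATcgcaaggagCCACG
Hsp90b1, ERSE, chr10:86705533-86705551: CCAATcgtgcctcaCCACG
Dnajb11, ERSE-II, chr16:22857852-22857862: ATTGGcCCACG
Dnajc3, ERSE, chr14:118937827-118937845: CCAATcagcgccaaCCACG
Creld2, ERSE, chr15:88819520-88819538: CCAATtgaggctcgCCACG
Calr, ERSE, chr8:84847075-84847093: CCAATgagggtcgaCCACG
Canx, ERSE, chr11:50325800-50325818: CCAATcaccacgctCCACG
Pdia6, ERSE, chr12:17266491-17266509: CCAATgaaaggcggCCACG
Ero1b, ERSE, chr13:12565682-12565700: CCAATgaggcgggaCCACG
Herpud1, ERSE-II, chr8:94386377-94386387: ATTGGgCCACG
Syvn1, ERSE, chr19:6046532-6046550: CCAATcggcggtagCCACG

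Counted from the gene start, the first base of the site lay at -65 in Hspa5, at -98 in Pdia6 and at -44 in Syvn1, and in Hsp90b1 at -212 and -107. Whole windows follow for 4 genes, 5′ to 3′ on the strand of the gene. Hspa5 and Hsp90b1 are the central chaperones, the second with 2 sites. Pdia6 and Dnajb9 were the folding factors that differed most between the diets, in opposite directions, and the window of Dnajb9 held none of the 4 elements. Capitals mark the fixed letters of ERSE on either strand.
Hspa5, chr2:34771840-34772139, plus strand: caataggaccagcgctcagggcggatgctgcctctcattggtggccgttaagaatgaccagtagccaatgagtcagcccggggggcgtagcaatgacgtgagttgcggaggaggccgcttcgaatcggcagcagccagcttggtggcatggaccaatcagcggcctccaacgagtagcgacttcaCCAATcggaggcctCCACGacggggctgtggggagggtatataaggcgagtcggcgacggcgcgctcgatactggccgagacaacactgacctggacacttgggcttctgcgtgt
Hsp90b1, chr10:86705395-86705694, minus strand: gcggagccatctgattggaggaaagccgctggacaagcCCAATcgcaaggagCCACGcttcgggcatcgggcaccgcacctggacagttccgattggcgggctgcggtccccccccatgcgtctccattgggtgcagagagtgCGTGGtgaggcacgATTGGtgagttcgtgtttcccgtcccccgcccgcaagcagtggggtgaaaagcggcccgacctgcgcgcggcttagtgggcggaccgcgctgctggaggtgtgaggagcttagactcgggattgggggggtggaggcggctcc
Pdia6, chr12:17266339-17266638, plus strand: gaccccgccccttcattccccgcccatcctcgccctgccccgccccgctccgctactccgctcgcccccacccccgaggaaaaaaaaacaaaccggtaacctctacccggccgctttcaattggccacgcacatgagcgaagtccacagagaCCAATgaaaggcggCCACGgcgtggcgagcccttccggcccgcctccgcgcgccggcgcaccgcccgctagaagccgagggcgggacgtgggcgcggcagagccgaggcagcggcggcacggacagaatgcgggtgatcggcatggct
Dnajb9, chr12:44210019-44210318, minus strand: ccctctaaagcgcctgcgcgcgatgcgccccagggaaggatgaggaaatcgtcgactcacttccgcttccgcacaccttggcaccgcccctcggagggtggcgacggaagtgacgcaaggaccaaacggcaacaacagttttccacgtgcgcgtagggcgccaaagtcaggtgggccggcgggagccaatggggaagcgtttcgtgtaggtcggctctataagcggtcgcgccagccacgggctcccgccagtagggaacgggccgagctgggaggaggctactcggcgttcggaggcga

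None of the 30 measured genes passed the test between inulin and control (limma, 0 of 30, against 0.0903% of all genes, 0.0531% higher and 0.0372% lower), and in none did the values of the diets separate without overlap (0 of 30, against 2.18% of all genes). At an unadjusted p below 0.05 stood 3 of the 30, against 13.5% of all genes: Ern2 and Pdia6, lower, and Dnajb9, higher. The median size of the differences was 0.065 on the log2 scale, near the 0.072 of all genes, and the largest was 0.23. The 95% intervals were narrow enough to place bounds: for 22 of 30 genes the whole interval lay within a 1.2-fold change either way, against 58.7% of all genes, and for 29 of 30 it lay within a 1.5-fold change, Sec61b excepted, a share near the 94.9% of all genes. Of the 30 genes 21 were lower and 9 higher under inulin (30% higher, against 51.4% of all genes), with a median of -0.03 against 0.0039 over all genes. When each array was centred on its median 18 were lower, and the median over all genes rose to 0.0295. All but Trib3 were brighter than the 40th percentile. Without genes dimmer than that, 20 of 29 were lower and the median over all genes was -0.0172.

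**Figure D1:**
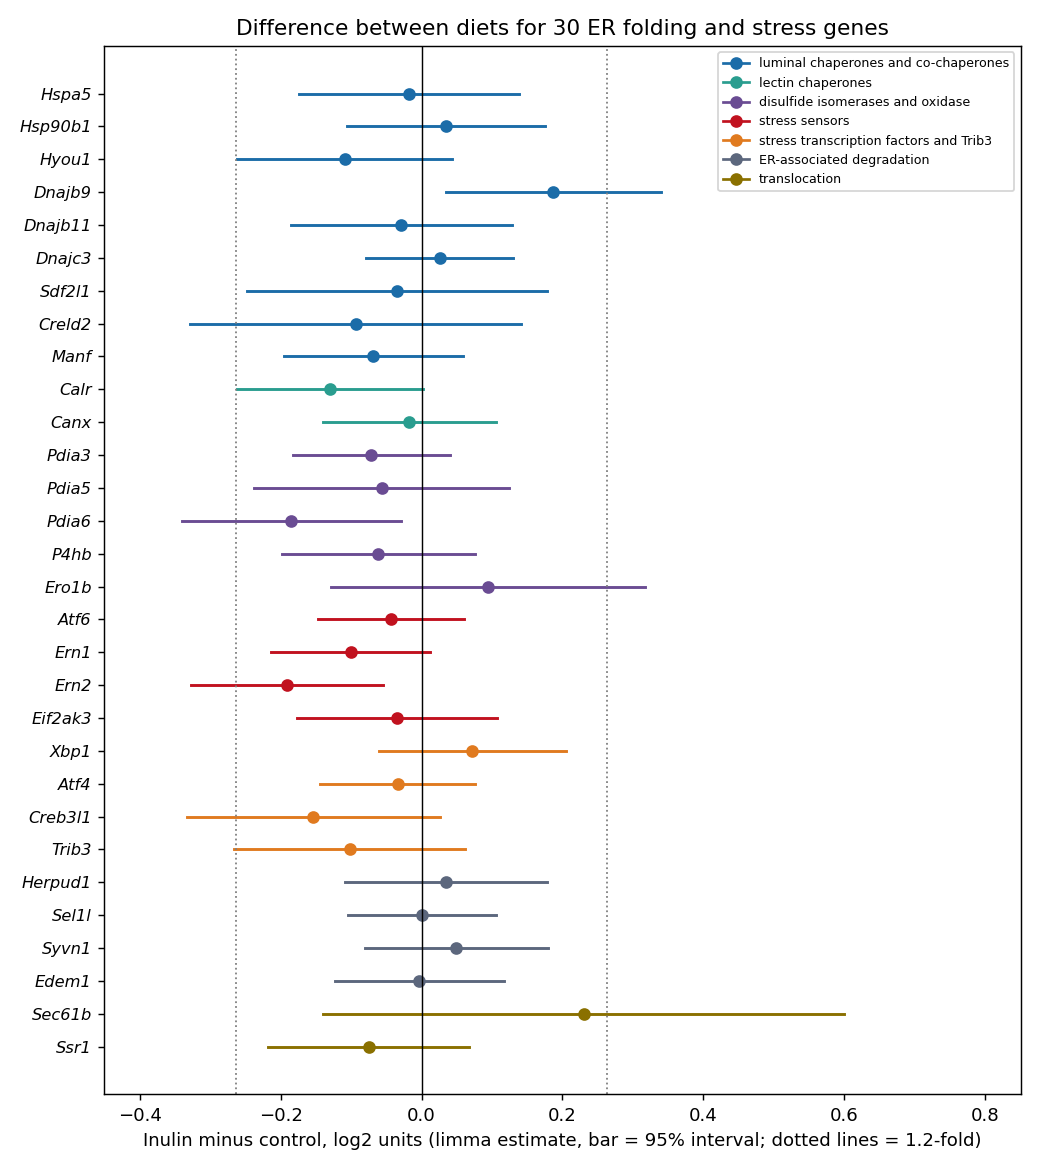
Difference between inulin (n = 6) and control (n = 5) for each of the 30 measured genes in log2 units, with the limma estimate as a point, its 95% interval as a bar, colours by role and dotted lines at a 1.2-fold change. The intervals of Dnajb9, Pdia6 and Ern2 do not reach 0, though no gene passed after adjustment over all genes, and the interval of Sec61b is the widest.

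The luminal chaperones and co-chaperones gave 3 of 9 genes higher and 6 lower, with a median of -0.03. Hspa5, which encodes BiP, the ER Hsp70 that also holds the sensors inactive, was at 10.63, 10.59, 10.60, 10.57 and 10.42 in control mice 1 to 5 and at 10.42, 10.72, 10.43, 10.59, 10.69 and 10.42 in inulin mice 1 to 6. The inulin values lay within the control range in 4 mice and above it in 2, and the difference was -0.02 ± 0.072 (SE), with an interval from 0.887-fold to 1.10-fold (limma adjusted p 0.94). Its sign turned to 0.0081 when arrays were centred on their medians. Hsp90b1, the ER Hsp90 GRP94, ran from 10.34 to 10.58 in control and from 10.38 to 10.66 in inulin mice, a difference of 0.03 ± 0.065 (SE). The highest Hsp90b1 value was that of inulin mouse 3, the mouse with the most pancreatic marker signal, and the difference was -0.02 without inulin mice 3, 4 and 5. The difference was 0.0006 without inulin mouse 3 alone, and its sign turned with adipocyte and pancreatic marker means in the model. The part of pancreatic tissue in the Hsp90b1 difference was not tested.

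Dnajb9, the co-chaperone ERdj4 that is known as a target of spliced Xbp1, had the largest difference towards inulin among the folding factors. Control mice were at 9.20, 9.24, 9.28, 9.24 and 9.18, and inulin mice at 9.57, 9.38, 9.14, 9.50, 9.50 and 9.39. Inulin mouse 3 lay below every control and the other 5 inulin mice lay above every control. The difference was 0.19 ± 0.071 (SE), 1.14-fold with an interval from 1.02-fold to 1.27-fold, and it did not pass (limma unadjusted p 0.020, adjusted p 0.28). Without inulin mouse 3 it was 0.24 with an adjusted p of 0.11.

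The other co-chaperones and chaperone partners lay close to their control levels. Dnajb11 and Dnajc3, J-domain partners of BiP, differed by -0.03 ± 0.072 (SE) and 0.03 ± 0.048 (SE). Hyou1, the nucleotide exchange factor of BiP, differed by -0.11 ± 0.071 (SE), with control values from 8.84 to 9.12 and inulin values from 8.78 to 9.09. Sdf2l1, a partner of Dnajb11 in holding proteins soluble, spread widely inside each diet, from 8.63 to 9.06 in control and from 8.58 to 9.01 in inulin mice, for a difference of -0.03 ± 0.098 (SE). Its highest values were those of control mouse 1 and inulin mouse 3. Creld2 and Manf, small secretable ER proteins that rise with ER stress, differed by -0.09 ± 0.11 (SE) and -0.07 ± 0.059 (SE). Inulin mouse 4 had Creld2 at 7.96, below the 8.27 to 8.68 of all other mice.

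Of the lectin chaperones 2 of 2 and of the disulfide enzymes 4 of 5 had a difference below 0, and none passed. Calr, calreticulin, was at 11.34, 11.33, 11.23, 11.33 and 11.14 in control mice and at 11.12, 11.11, 11.16, 11.08, 11.33 and 11.07 in inulin mice. Of the 6 inulin mice 4 lay below every control, and inulin mouse 5 lay at the level of the upper controls. The difference of -0.13 ± 0.061 (SE) did not pass (limma adjusted p 0.38), and it was -0.21 with adipocyte and pancreatic marker means in the model (limma adjusted p 0.34). Canx, its membrane-bound relative calnexin, differed by -0.02 ± 0.057 (SE), and by 0.0083 with centred arrays. Pdia6, a disulfide isomerase that also restrains IRE1, was at 8.54, 8.53, 8.59, 8.70 and 8.40 in control mice and at 8.24, 8.30, 8.37, 8.34, 8.61 and 8.33 in inulin mice. Inulin mouse 5 was the highest inulin mouse, as for Calr. In Pdia6 the other 5 inulin mice lay below every control. The difference was -0.19 ± 0.072 (SE), a 0.880-fold level with an interval from 0.790-fold to 0.980-fold (limma adjusted p 0.29), and it was -0.23 with an adjusted p of 0.10 without inulin mouse 5. With the marker means in the model it was -0.31 (limma adjusted p 0.22).

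Among the other disulfide enzymes, Pdia3, which works with the lectin chaperones, differed by -0.07 ± 0.051 (SE), P4hb, the founding isomerase, by -0.06 ± 0.063 (SE) and Pdia5 by -0.06 ± 0.083 (SE). Ero1b, the oxidase that recharges the isomerases, differed by 0.09 ± 0.10 (SE), with control values from 5.92 to 6.42 and inulin values from 6.11 to 6.58. None of these passed the test, and each had its diets overlapping. Of the 11 genes with an exact ERSE or ERSE-II site, all measured, 5 were higher and 6 lower (median -0.02). Of the 14 measured genes whose window held neither, 4 were higher and 10 lower (median -0.03). The 5 genes without a window, Hyou1, Manf, Atf6, Ern2 and Creb3l1, were each lower and belong to neither group. Whether genes with and without a site differ was not tested.

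The stress sensors were lower under inulin in 4 of 4 genes, with a median of -0.07, and none passed. Ern2, the form of IRE1 found in mucus-producing epithelium, had the smallest p of the 30 genes. Control mice were at 10.35, 10.28, 10.12, 10.27 and 10.19, and inulin mice at 9.95, 10.02, 10.18, 10.17, 9.96 and 10.02. Inulin mice 1, 2, 5 and 6 lay below every control, while inulin mice 3 and 4 lay inside the control range. The difference was -0.19 ± 0.063 (SE), a 0.876-fold level with an interval from 0.797-fold to 0.963-fold (limma unadjusted p 0.0099, adjusted p 0.22). In scrapings fewer cells of a type and less RNA per cell cannot be told apart. The other 11 goblet cell markers gave 5 higher and 6 lower with a median of -0.03, and their per-mouse means ran from 10.89 to 10.99 in control and from 10.86 to 11.03 in inulin mice. Markers of deep crypt secretory cells were lower in 6 of 8 genes, with a median of -0.54 and a range from -1.23 to 1.31. Of the 8 genes 5 were lower at an unadjusted p below 0.05 (limma, against 7.19% of all genes), and 0 passed. Their per-mouse means ran from 9.67 to 9.99 in control and from 9.23 to 10.07 in inulin mice. Markers of distal colon position were lower in 5 of 5 genes, with a median of -0.69. Per-mouse means of these ran from 6.94 to 7.97 in control and from 6.36 to 7.26 in inulin mice. With the mean of Hoxb13 and Hoxa13 in the model, Ern2 again had the smallest adjusted p of the 30 genes (limma, 0.23). Over all alternatives its difference ran from -0.244 to -0.163. The part of these cells and of colon position in the Ern2 difference was not tested.

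Ern1, the widely expressed form of IRE1, was at 8.80 to 8.88 in control mice, a narrow range, and at 8.66, 8.76, 8.67, 8.65, 8.87 and 8.78 in inulin mice. Inulin mouse 5 was inside the control range and the other 5 were below it, for a difference of -0.10 ± 0.052 (SE; limma adjusted p 0.42). The mean of Hoxb13 and Hoxa13 in the model brought it to -0.0588. Eif2ak3, the gene of PERK, and Atf6 differed by -0.03 ± 0.066 (SE) and -0.04 ± 0.048 (SE), and the diets overlapped in both.

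Of the 4 measured transcription factors and Trib3, 1 was higher and 3 were lower. Xbp1, the factor made active by IRE1, was at 10.87, 10.78, 10.73, 10.72 and 10.67 in control mice and at 10.87, 10.81, 10.82, 10.92, 10.63 and 10.91 in inulin mice. Inulin mouse 5 had the lowest Xbp1 value of all 11 mice. The difference was 0.07 ± 0.061 (SE; limma adjusted p 0.65), and a value per gene does not show how much of the mRNA was spliced. Atf4, the factor whose translation PERK favours, differed by -0.03 ± 0.051 (SE), with control values from 7.64 to 7.84 and inulin values from 7.60 to 7.75. Creb3l1, the ER-anchored factor OASIS known for its part in secretory cells, ran from 10.32 to 10.60 in control mice and from 9.99 to 10.48 in inulin mice, with inulin mouse 5 lowest. Its difference was -0.15 ± 0.083 (SE; limma adjusted p 0.44), and -0.09 without inulin mouse 5 or with the marker means in the model. Trib3, a pseudokinase induced through Atf4 and Ddit3, lay between 3.94 and 4.42 in all mice, near the lower quartile of the arrays, and differed by -0.10 ± 0.076 (SE).

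Genes of ER-associated degradation lay closest to 0, at 3 of 4 higher with a median of 0.02. Herpud1, an ubiquitin-like organiser of the degradation complex, was at 10.35 to 10.66 in control and 10.39 to 10.67 in inulin mice. Syvn1, the ubiquitin ligase HRD1, and Sel1l, its membrane adaptor, differed by 0.05 ± 0.060 (SE) and 0.0004 ± 0.048 (SE), and Edem1, a lectin that marks glycoproteins for degradation, by -0.0031 ± 0.055 (SE). The intervals of Sel1l, from 0.930-fold to 1.08-fold, and of Edem1, from 0.918-fold to 1.08-fold, were among the tighter bounds in the list.

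Translocation was represented by a channel subunit and an accessory protein. Sec61b, the beta subunit of the channel, was at 7.94, 7.42, 7.50, 7.84 and 7.97 in control mice and at 7.56, 8.30, 8.27, 8.14, 8.10 and 7.43 in inulin mice. Inulin mice 2 to 5 lay above every control and inulin mice 1 and 6 lay among the lower controls. The difference of 0.23 ± 0.17 (SE) did not pass (limma adjusted p 0.60), and it was -0.09 once adipocyte and pancreatic marker means entered the model. The 2 other probe sets that carry the symbol Sec61b differed by 0.22 and 0.20, and whether each of the 3 reads Sec61b itself or a near-identical copy is not known here. Ssr1, of the translocon-associated complex, differed by -0.08 ± 0.066 (SE).

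Set side by side, the folding factors had a median difference of -0.05 (4 of 16 higher) and the stress regulators one of -0.07 (1 of 8 higher), beside 0.0039 over all genes, of which 51.4% were higher. Both medians were below 0, and whether they differ from each other was not tested. Over the alternatives the folding factor median ran from -0.105, with adipocyte and pancreatic marker means in the model (14 of 16 lower), to -0.0197, with centred arrays (10 of 16 lower), and the regulator median from -0.0856 to -0.0432. Their order was not stable, since the regulators stood nearer to 0 than the folding factors when dim genes, Trib3 among them, were dropped (-0.0432 against -0.0454) and with the marker means in the model (-0.0856 against -0.105). The median over all genes moved as well, to 0.0169 with the marker means, 0.0295 with centred arrays and -0.0172 without dim genes. Centring shifts the difference of every gene by the same amount, so it did not bring the folding factors nearer to all genes. Single mice also moved the folding factor median, to -0.0786 without control mouse 5, -0.025 without inulin mouse 4 and -0.0262 without inulin mouse 6. The per-mouse median spread more widely between mice of a diet for the folding factors, with an SD of 0.084, than for the regulators, with 0.039. Gene by gene the contrast was smaller, with a median SD within diets of 0.116 for folding factors and 0.095 for regulators. In the regulators control mouse 5, at -0.07, lay within the range of the inulin mice, and the other control mice lay above it. Neither median was tested against this spread.

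**Figure D2:**
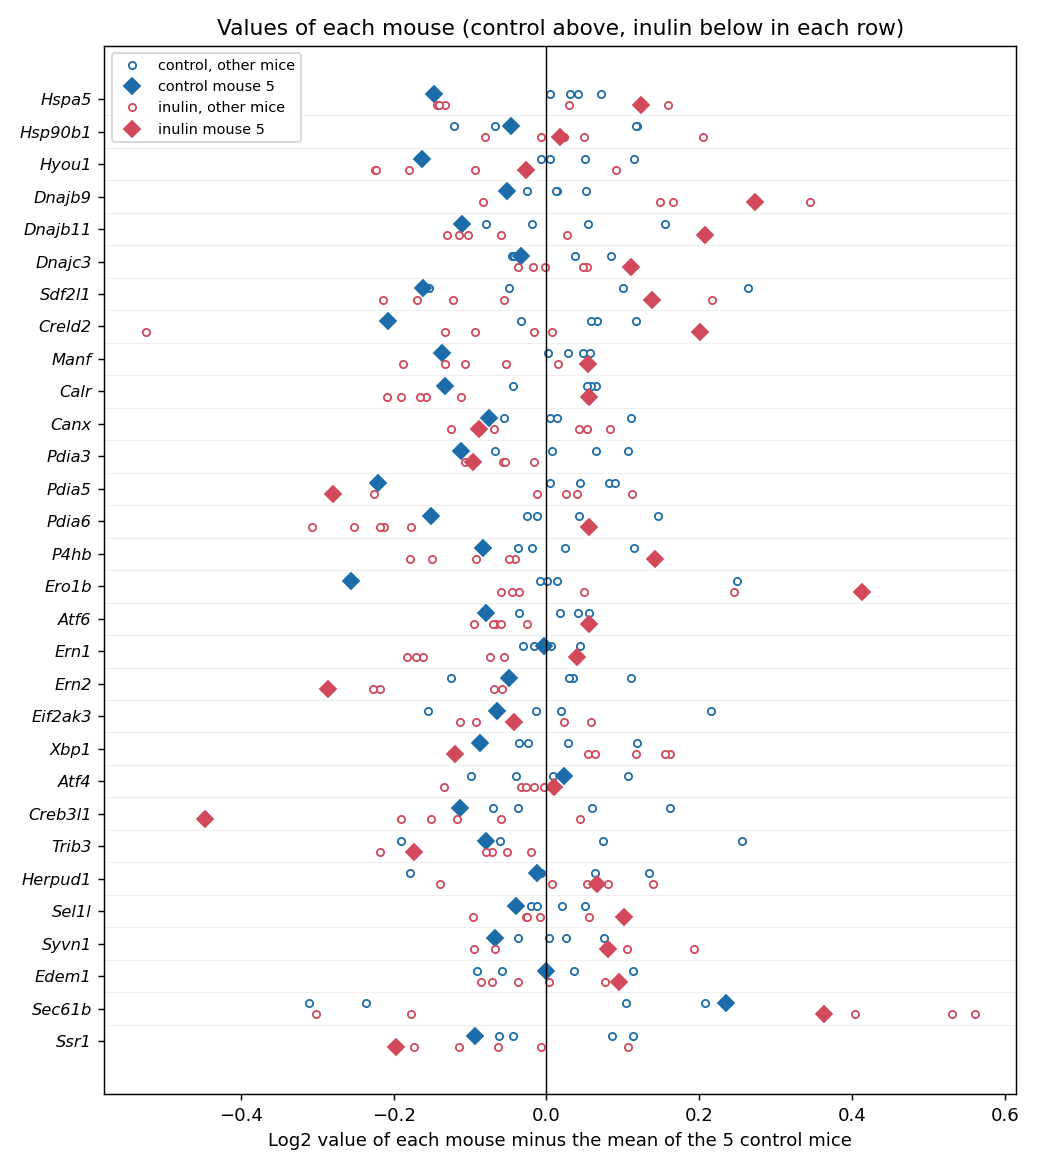
Log2 value of each mouse minus the control mean, 1 row per gene, with control mice in blue, inulin mice in red and mouse 5 of each diet as a filled diamond. Control mouse 5 sits at or near the low end of most folding factors and inulin mouse 5 at the high end of many, whereas inulin mouse 5 is the lowest of all mice for Xbp1, Creb3l1, Pdia5 and Ssr1.

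Among the folding factors, 1 control mouse was nearly always the lowest, while the highest control and the lowest inulin mouse varied from gene to gene. Control mouse 5 had the lowest control value in 14 of 16 folding factors (87.5%), whereas it was lowest in 20.2% of all genes. Control mice 1 and 4 each had the highest value in 6 of 16 (37.5%), against 15.8% and 23.2% of all genes. No inulin mouse was lowest in more than 5 of 16. Among inulin mice, mouse 5 was highest in 8 of 16 (50%), against 21.0% of all genes, among them Calr, Pdia6, P4hb, Dnajb11 and Creld2. The per-mouse median over the folding factors, relative to the control mean, was 0.05, 0.0042, 0.03, 0.06 and -0.13 in control mice 1 to 5 and -0.05, 0.01, -0.09, -0.14, 0.08 and -0.13 in inulin mice 1 to 6. The regulators gave 0.07, 0.01, -0.03, -0.03 and -0.07 in control and values between -0.09 and -0.04 in inulin mice.

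Plasma and B cell markers, which mark another cell type with a large ER, were higher under inulin in 10 of 13 genes. Their mean was 5.81, 5.70, 5.74, 6.12 and 5.50 in control mice and 6.08, 5.70, 5.61, 5.80, 7.03 and 5.78 in inulin mice. Jchain, the joining chain of secreted antibody, averaged 6.81 ± 0.28 (SD) over the control mice and 7.45 ± 0.56 (SD) over the inulin mice. Sdc1, which epithelium also expresses, averaged 9.65 and 9.68. The mouse with the highest and the mouse with the lowest marker mean, inulin 5 and control 5, were those with the highest folding factor median overall and the lowest among controls. The order of the 5 control mice was the same in both measures, and that of the inulin mice below mouse 5 was not. Inulin mouse 5 also had the highest mean of all 11 mice for goblet (10.94), deep crypt secretory (10.07), colonocyte (11.44), adipocyte (7.82), macrophage (6.19), fibroblast (5.96) and smooth muscle (5.80) markers. The part of these cells in its folding factor values was not tested.

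**Figure D3:**
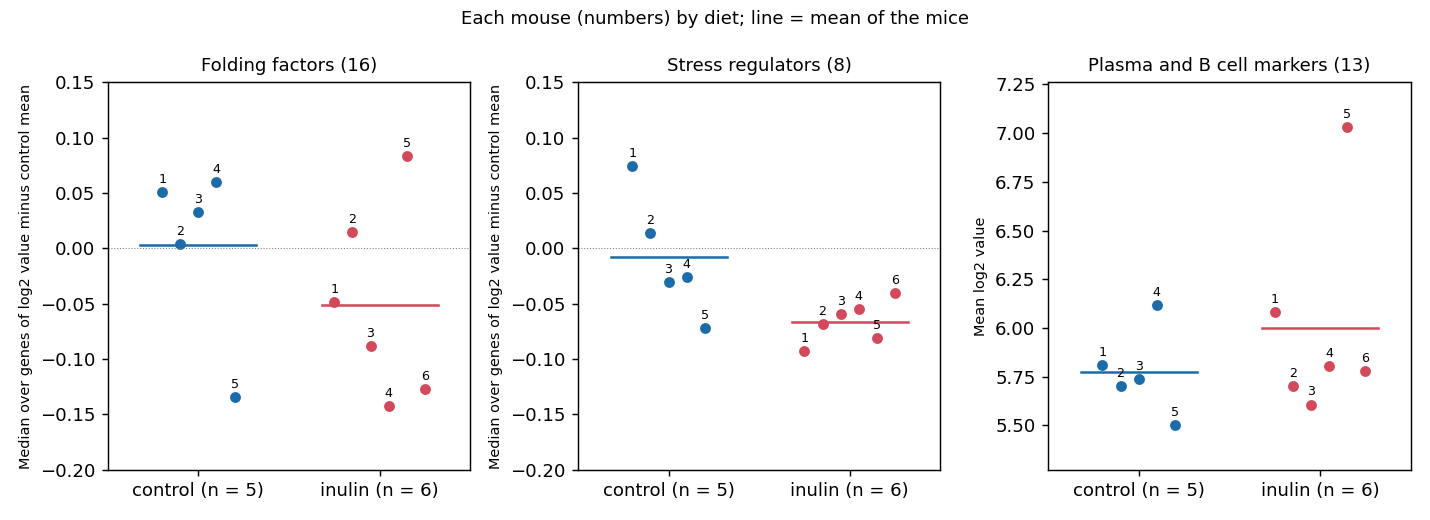
Median over the 16 folding factors and over the 8 stress regulators of the log2 value minus the control mean, and mean log2 value of the 13 plasma and B cell markers, with 1 numbered point per mouse and the mean of each diet as a line. Folding factors overlap broadly between diets, the regulator medians of the 6 inulin mice lie close together, and inulin mouse 5 is at 7.03 for the markers.

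The wider pathway was read from 7 lists of other genes. Of 197 measured, 109 were higher and 88 lower, 0 passed the test (limma), and 14 higher and 10 lower had an unadjusted p below 0.05 (12.2%, against 13.5% of all genes). By list, the median was 0.02 over 35 other folding factors, 0.01 over 25 degradation factors, -0.02 over 23 translocation and signal peptide factors, 0.0016 over 18 genes of oligosaccharyl transfer, 0.02 over 39 genes of ER to Golgi transport, and 0.03 over 20 other sensors and processing enzymes. Within each of these lists the 2 genes with the smallest p were taken as examples. They include Edem3, a relative of Edem1, at 0.27 ± 0.083 (SE), Alg2, a mannosyltransferase that builds the sugar precursor, at -0.24 ± 0.072 (SE), and Cnpy4 and Serpinh1, a collagen chaperone, at -0.17 and 0.24. In transport, Sar1b, the GTPase that starts export vesicles and serves lipoprotein secretion, differed by 0.18 and Ergic1 by -0.14. Srp19 and Spcs3, of signal recognition and signal cleavage, differed by -0.12 and -0.09. Herpud2 and Alg12 differed by 0.11 and 0.10, and the BH3-only gene Bcl2l11 and the kinase gene Mapk8 by 0.22 and 0.14.

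Known targets of PERK and Atf4 ranged most widely, from -0.39 to 0.42 over 37 measured genes, with 20 higher, 17 lower and a median of 0.02. At an unadjusted p below 0.05 stood 7 higher (against 6.34% of all genes) and 3 lower (against 7.19%). Cth, the enzyme that makes cysteine from cystathionine, was at 9.68, 9.53, 9.74, 9.81 and 9.59 in control mice and at 10.03, 10.12, 10.04, 9.86, 9.88 and 10.09 in inulin mice. Every inulin mouse lay above every control in Cth, which was named for having the smallest p of the 37 genes. Such separation occurred in 1.01% of all genes, a share that cannot weigh a gene picked in this way. The Cth difference of 0.33 ± 0.069 (SE), 1.26-fold, had a limma adjusted p of 0.071. Stc2, a secreted glycoprotein, differed by 0.35 ± 0.092 (SE), 1.28-fold (limma adjusted p 0.15). Of 4 further genes, chosen after their values were seen, Sesn2 differed by 0.42, Atf3 by 0.38 and Nupr1 by 0.31, while the seryl-tRNA synthetase gene Sars differed by -0.13. Those 4 were not the next by p, as Eif4ebp1 (0.24), Vldlr (0.25) and Cars (-0.16) came before them. Slc7a11 had the lowest difference of the list, -0.39, Mthfd2 was at -0.22, and Asns and Chac1 were at 0.02 and 0.03. Atf4 itself differed by -0.03, a value of its mRNA that does not show its translation. As 0 of the target genes passed the threshold, they are listed as values and not as a change of the group.

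**Figure D4:**
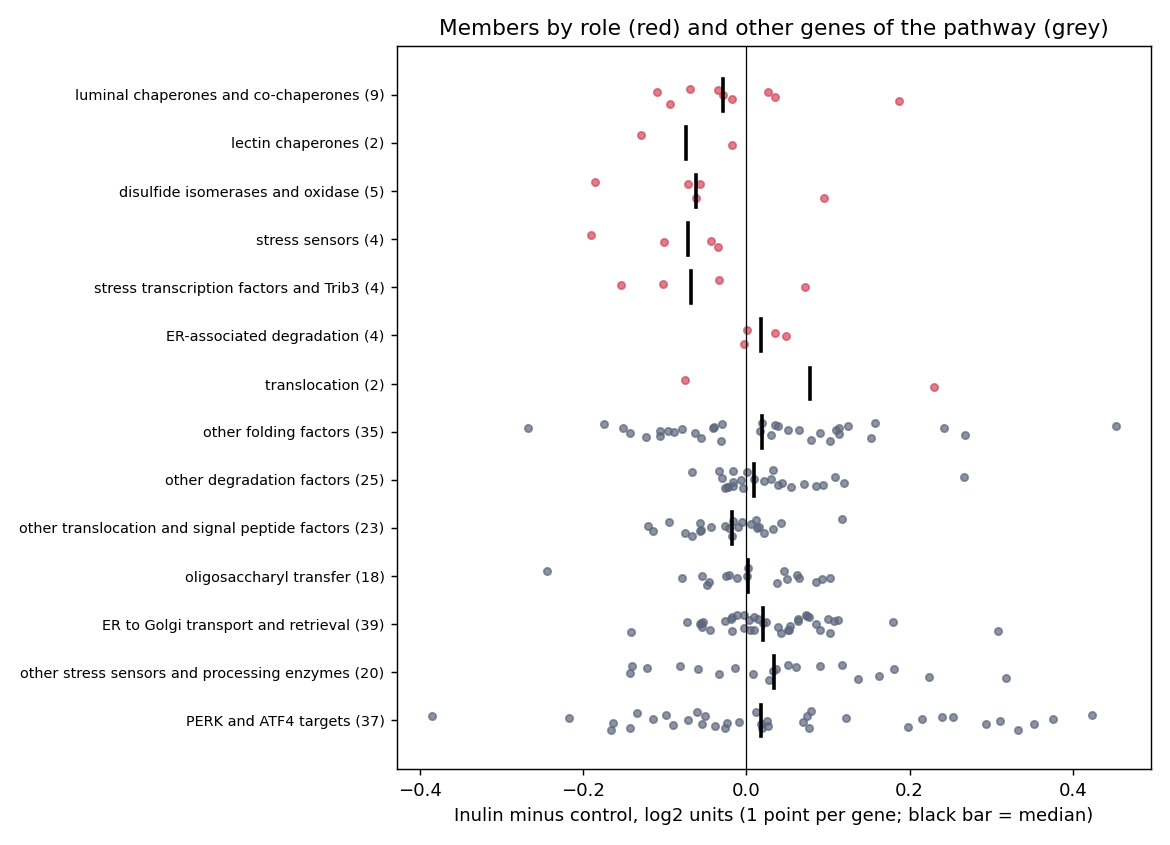
Difference between diets in log2 units for each gene, with the members by role in red, other genes of the pathway in grey, and the median of each list as a black bar. Medians of the grey lists lie between -0.02 and 0.03, and the PERK and Atf4 targets are spread from -0.39 to 0.42.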

How the data were processed

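Per the submitters' processing notes, the authors normalised the arrays with the robust multi-array average (RMA) and deposited log2 values. RMA subtracts background and makes the arrays' distributions alike, which removes shifts shared by most genes. Software version and build: not given in the sources used here. Of 35556 probe sets, 21218 carried 1 gene symbol, 1881 several and 12457 none, by the platform annotation. Diets were compared with limma 3.58.1 in R 4.3.3 (lmFit and eBayes, inulin minus control, 11 mice, no covariate), and Benjamini-Hochberg adjustment ran over 18820 genes, with a threshold of 0.05. SE is the standard error from limma, and a fold is 2 raised to the log2 difference. No depth applies to an array, and the number of arrays limits the precision. The steps were tested on simulated data.

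The members, the gene lists and the alternatives were chosen with earlier results of these data known. Besides the members, the rule named in each pathway list any gene past the threshold, or failing that the leading 2 by p, and in marker lists the brightest genes. Promoter sequences come from RefSeq on GRCm38.p6. Alternatives covered the variance prior, array weights, unequal variances, dropping genes dimmer than the 40th percentile, quantile normalisation, median centring, averaging probe sets, a replicate block, leaving out mice, marker covariates and a threshold of 0.1. Cage, batch and scan date are absent from the labels.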

Additional observations from a re-analysis of the deposited data

Results flagged for a closer look

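In 5 of 60 sets of values, each gene in each diet, the highest or lowest mouse stood far from the rest of its diet by Dixon's criterion, where chance gives about 1 in 20, or 3. Control mouse 5 had Manf at 6.78, with the next control at 6.92, and Pdia5 at 8.85, with the next at 9.07. Inulin mouse 5 had Calr at 11.33, with the next inulin mouse at 11.16, and Pdia6 at 8.61, with the next at 8.37. Inulin mouse 4 had Atf4 at 7.60, with the next at 7.70.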

How the results depend on the processing

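In each of 24 alternatives 0 of the 30 genes passed the threshold (limma, or the unmoderated test), and the lowest adjusted p of any was 0.092, for Pdia6 with array weights. The direction held in all alternatives for 13 genes and turned in at least 1 for 17, where no turned value was larger in size than 0.09. The precision is limited by 11 arrays, and Trib3 left the fit when dim genes were dropped.

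The count over all genes, 17, was 42 with a trended prior, 245 with array weights, 0 with unequal variances (Welch, where 5 of the 30 genes had an unadjusted p below 0.05), 52 without dim genes, 62 with centred arrays, 33 without inulin mice 3, 4 and 5, 30 with fat and pancreas covariates, 130 at the threshold of 0.1, and between 7 and 98 with 1 mouse left out. Same-numbered mice had correlations of their deviations between -0.10 and 0.22, and not every mouse correlated best with its own number, so the numbers were not taken as pairs. With the replicate block 95 genes passed, and Hspa5 was 0.00717, Canx 0.00407, Sel1l -0.0107 and Edem1 0.0134.

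Other differences that changed sign were small, and the cause was not tested. With array weights Sel1l was -0.0205. After quantile normalisation Sel1l was -0.00773. With centred arrays Hspa5 was 0.00809, Canx 0.00831 and Edem1 0.0226. Without inulin mice 3, 4 and 5 Hsp90b1 was -0.0214, Pdia5 0.0592 and Sel1l -0.0222. With fat and pancreas covariates Hsp90b1 was -0.00906, Dnajc3 -0.0117, Pdia5 0.0863, Ero1b -0.0319, Sel1l -0.0294, Sec61b -0.0868 and Ssr1 0.0207. With the Hoxb13 and Hoxa13 covariate Sdf2l1 was 0.0501, Creld2 0.0265, Atf4 0.00155 and Syvn1 -0.00114. With 1 mouse left out in turn, Hspa5 ran from -0.0543 to 0.00761, Dnajb11 from -0.0761 to 0.00997, Sdf2l1 from -0.0845 to 0.0317, Canx from -0.0374 to 0.0105, Eif2ak3 from -0.0732 to 0.0191, Herpud1 from -0.0101 to 0.0693, Sel1l from -0.0199 to 0.0196 and Edem1 from -0.0258 to 0.0252.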
